A study of Mus musculus with 29 samples.

Results

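The genes described here are 50 genes of mitosis, taken by symbol out of the 23366 genes counted in each library: mitotic cyclins and kinases, spindle checkpoint genes, kinesins, and genes of the kinetochore, the chromosomes and the cleavage furrow. All 50 were found and all 50 passed the filter on low counts in every fit. RNA came from mouse LSK cells, the lineage-negative, cKit+ and Sca1+ bone marrow cells that hold the blood-forming stem and early progenitor cells, sorted as CD150POS or CD150NEG. The 4 genotypes were Mysm1-/-Puma-/- (3 CD150NEG and 7 CD150POS libraries), Mysm1-/-Puma+/- (3 and 4), Puma-/- (3 and 2) and wild type (3 and 4), in C57BL/6 mice of 8 to 12 weeks whose sex label is pooled male and female. The Mysm1-/-Puma+/- mice stood for Mysm1 loss, since the submitters state that they phenocopy Mysm1-/-, and no Mysm1-/- library with intact Puma was analysed here. MYSM1 is a histone H2A deubiquitinase, and Puma, also called Bbc3, is a p53-induced gene that promotes cell death. The comparisons ask how loss of each gene, alone or with the other, changed these cells.

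Mitosis is run by cyclins A and B bound to the kinase CDK1, with the Polo and Aurora kinases, until the anaphase-promoting complex with CDC20 destroys the cyclins and releases the sister chromatids. Most of these genes are transcribed late in the cell cycle, held down in resting cells by the DREAM complex and switched on by B-MYB, FOXM1 and the CCAAT-binding factor NF-Y, so that their RNA tracks how many cells in a population are in cycle. The cell-cycle homology region, with the letters TTTGAA or TTCGAA near the start site, is the element through which the MuvB core of DREAM binds many of them. In adult marrow the most primitive CD150-positive stem cells divide rarely, and the CD150-negative progenitors divide more often.

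The promoters of the members shared these letters, which played no part in choosing them. RefSeq windows on GRCm38.p6, 250 bases before to 50 bases after a start site, were matched by symbol for 42 of the 50 members. TTTGAA, on either strand, lay in the windows of 32 of the 42 members (76.19%, 95% Wilson interval 61.47 to 86.52), against 20.23% of all 27025 genes in the table. TTTGAA or TTCGAA lay in 34 (80.95%), against 21.66% of all genes, and CCAAT lay in 31 (73.81%, 58.93 to 84.7), against 41.06%. TTTGAA and CCAAT can share a base, and each was counted. The E2F-type letters TTTGGCGC and TTTCGCGC were rare, with 2 members (4.76%, against 0.58%) and 1 member (2.38%, against 0.37%). Counting a place covered by overlapping windows of a gene once, there were 47 sites of TTTGAA or TTCGAA, and 33 of them lay within 50 bases of a start site. A match is a run of letters and not a measured binding site. The windows of 5 members whose values are given below are shown from 100 bases before to 50 bases after the start, 5′ to 3′ on the gene's strand, with TTTGAA and TTCGAA in capitals, and likewise CCAAT or its complement. They show the element on its own, doubled, in its rarer spelling and missing. Each lies on the minus strand: Cdk1 at chr10:69352863-69353012, Cdc20 at chr4:118437294-118437443, Bub1 at chr2:127831810-127831959, Spc25 at chr2:69206164-69206313 and Ccnb1 at chr13:100786437-100786586.
Cdk1: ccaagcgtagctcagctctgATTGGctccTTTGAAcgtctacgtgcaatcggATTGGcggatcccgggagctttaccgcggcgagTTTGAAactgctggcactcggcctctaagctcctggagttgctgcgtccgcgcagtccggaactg
Cdc20: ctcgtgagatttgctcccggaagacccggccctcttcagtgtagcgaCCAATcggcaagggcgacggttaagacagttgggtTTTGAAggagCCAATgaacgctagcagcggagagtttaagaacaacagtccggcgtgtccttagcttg
Bub1: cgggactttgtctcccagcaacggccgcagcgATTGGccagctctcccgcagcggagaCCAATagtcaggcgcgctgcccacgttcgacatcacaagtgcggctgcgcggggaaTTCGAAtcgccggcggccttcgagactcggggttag
Spc25: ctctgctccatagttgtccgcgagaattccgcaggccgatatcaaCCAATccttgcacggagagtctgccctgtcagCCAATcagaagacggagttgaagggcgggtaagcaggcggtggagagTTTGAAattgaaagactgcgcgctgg
Ccnb1: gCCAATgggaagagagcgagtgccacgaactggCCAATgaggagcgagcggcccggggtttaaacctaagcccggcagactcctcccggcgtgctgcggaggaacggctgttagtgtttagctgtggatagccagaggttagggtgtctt
Counted from the start site, Cdk1 carried TTTGAA at -71 and -15, Cdc20 at -18 and Spc25 at 25, while Bub1 carried TTCGAA at 15. In Ccnb1 neither was found in the whole window of 300 bases, where CCAAT stood at -99 and -67.

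The labels and libraries were checked first. Libraries held 12304713 to 54339749 counts, with at least 28066870 in each CD150NEG library and at most 35034318 in each CD150POS one. The smallest count of a member in a library was 115, for Cdc25c, and the smallest of Pttg1 was 116. Counting error may therefore form part of the spread between libraries for the lowest members. Slamf1, which encodes CD150, was at 10.97 to 30.4 CPM (counts scaled by TMM to the size of the library) in CD150POS libraries and 0.218 to 2.30 in CD150NEG ones. Kit was at 516 to 812 CPM in CD150POS libraries and 449 to 638 in CD150NEG ones. Ly6a, which encodes Sca1, was at 6.86 to 24.1 CPM in CD150POS and 6.35 to 26.2 in CD150NEG ones. Within CD150NEG cells Ly6a was at 14.2 to 26.2 CPM in Mysm1-/- libraries and 6.35 to 10.9 in the others, without overlap. Within CD150POS cells these ranges were 9.67 to 24.1 and 6.86 to 11.1, which overlap. The genotype labels could not be fully checked this way, since the deleted parts of the genes are not given in the sources used here. Mysm1 was at 66.4 to 122 CPM in Mysm1-/- libraries, against 85.3 to 132 in the others. Within CD150POS cells these ranges were 66.4 to 109 and 111 to 132, which do not overlap. Within CD150NEG cells they were 67.1 to 122 and 85.3 to 108, which do overlap. Bbc3 was at 15.9 to 29.8 CPM in Mysm1-/-Puma-/- and 17.2 to 44.99 in Mysm1-/-Puma+/- libraries, and at 2.29 to 6.00 in Puma-/- and 2.85 to 7.78 in wild-type ones. Mysm1 counts thus set the Mysm1-/- libraries apart in CD150POS cells only, and by a narrow gap. Bbc3 counts did not set the libraries labelled Puma-/- apart from those that keep the gene. Genotype names are therefore those of the labels throughout. Library A2 of the Mysm1-/-Puma+/- mice had Xist at 432 CPM in CD150NEG and 343 in CD150POS cells, against 14.2 or less in every other library, although all carry the same sex label. In all, 4 libraries had over 1.5 times their population's median level of odorant and pheromone receptor genes, whose counts serve as a background level, and among the CD150NEG libraries this was B1 of Mysm1-/-Puma-/-. Of the CD150POS libraries P1 to P3 and W1, named in a separate letter series, the summed CPM of 12 immediate early genes was 309 to 850 and 1134, against 71.6 to 232 in the other CD150POS libraries. No source says that replicates came from separate mice, and p-values therefore speak of the scatter among these libraries alone, some of which may be technical.

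The mitosis genes stood lowest in CD150NEG cells of Mysm1-/-Puma-/- mice. The mean log2 CPM of the 50 genes was 5.68 ± 0.190 there, against 6.33 ± 0.220 in Mysm1-/-Puma+/-, 6.37 ± 0.102 in Puma-/- and 6.54 ± 0.0877 in wild type (SD over libraries, n = 3 each). Together they took 0.420 to 0.510% of all counts in Mysm1-/-Puma-/-, 0.560 to 0.746% in Mysm1-/-Puma+/-, 0.672 to 0.755% in Puma-/- and 0.768 to 0.863% in wild type, ranges that do not overlap between Mysm1-/-Puma-/- and any other genotype. In CD150POS cells the mean was 6.102 ± 0.137 in Mysm1-/-Puma-/- (n = 7), 6.55 ± 0.461 in Mysm1-/-Puma+/- (n = 4), 6.41 in both Puma-/- libraries and 6.45 ± 0.170 in wild type (n = 4). The Mysm1-/-Puma+/- CD150POS libraries spread most, from 5.93 in A4 to 6.996 in A1, so that they held both the highest and the lowest CD150POS library. Of the 8 groups, CD150NEG Mysm1-/-Puma-/- had the lowest mean of 46 of the 50 genes, and CD150POS Mysm1-/-Puma+/- the highest mean of 26. RNA of a sorted pool cannot tell fewer dividing cells from less RNA of these genes per cell.

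**Figure D1:**
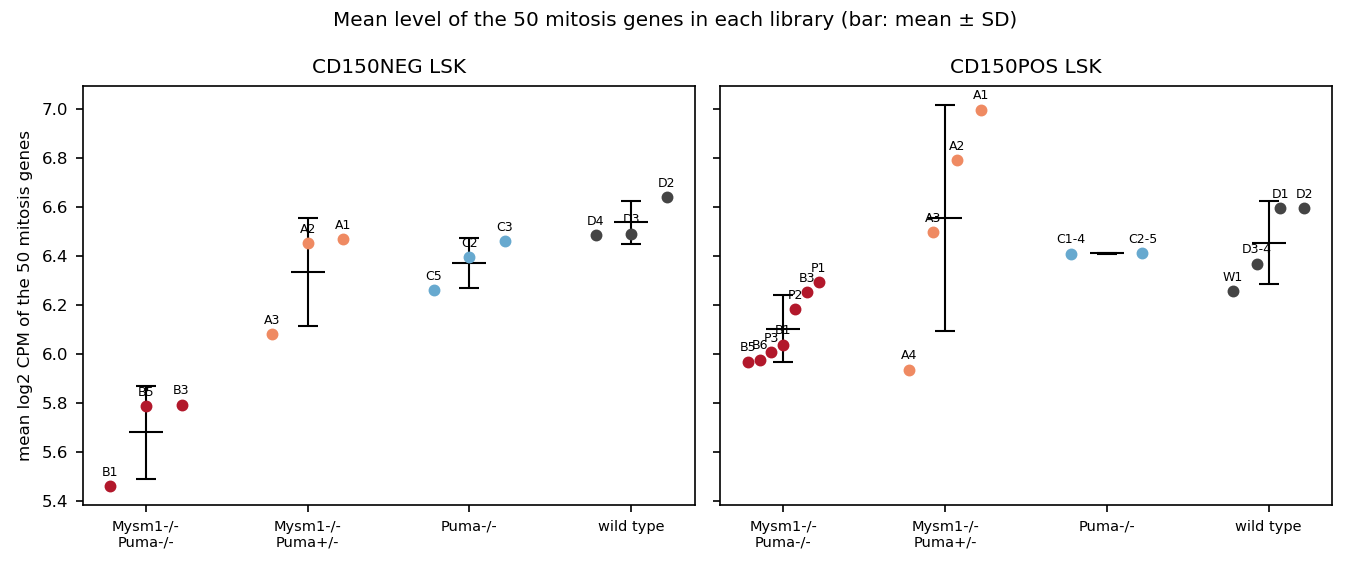
Mean log2 CPM of the 50 mitosis genes in each library, by genotype, for CD150NEG LSK cells on the left and CD150POS LSK cells on the right, with the mean ± SD of each group. The 3 CD150NEG Mysm1-/-Puma-/- libraries lie at 5.46 to 5.79, below all other CD150NEG libraries, and the CD150POS Mysm1-/-Puma+/- libraries run from 5.93 to 6.996.

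In expression per kilobase of the gene length given in the files, Top2a (182 CPM per kb), Smc4 (122) and Mki67 (117) were the highest members over all libraries, and Cdc25c (4.88), Pttg1 (4.44), Bub1 (4.32) and Ect2 (4.07) the lowest. The lengths of Bub1 and Ect2, among 5 members, were over 1.5 times the exon length in GENCODE vM1, and a longer length gives a lower level per kb. The genes lie on 17 chromosomes of the mm9 build (NCBIM37). In that annotation 18 of them overlap another gene, 13 on the opposite strand, and Ccnb2, Kif22 and Kif4 have a named pseudogene. Whether the counting used strand or reads with several alignments is not given in the sources used here, so the counts of these genes are uncertain to that extent.

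Puma loss in Mysm1-deficient CD150NEG cells came with lower levels of mitosis genes of every role. In Mysm1-/-Puma-/- over Mysm1-/-Puma+/-, 29 of the 50 genes fell and none rose at an edgeR adjusted p under 0.05, while the same rule called 1.05% of all 21168 genes as fallen. The median log2 fold change of the 50 was -0.74 (range -1.22 to -0.11), against 0.09 over all genes, and all 50 were lower. In 46 of them every Mysm1-/-Puma-/- library lay below every Mysm1-/-Puma+/- library, which held for 12.3% of all genes, the exceptions being Cdc25c, Cenpf, Hmmr and Kif23. Counts of genes whose libraries do not overlap were made on CPM scaled within each population; on the CPM printed here, scaled over all 29 libraries, this one was 45. The count rested on which libraries entered: 2 genes were called without A1, 0 without A2, 3 without B1 and 10 without B3. Over all genes, 222 fell in the full fit and 41, 1, 57 and 78 in these refits. The loss of calls was therefore not particular to the mitosis genes. The median of the 50 stayed between -0.86 and -0.63 whichever library was left out. A2 is the library with high Xist (432 CPM in CD150NEG cells), whose part in the count was not tested. Library B1, with the high receptor background (5810 CPM), had the lowest CD150NEG level of 42 of the 50 genes, and A3 the lowest Mysm1-/-Puma+/- level of 49. With the receptor level as a covariate the count was 31 and the median -0.75. Summed T cell marker RNA (9 genes) was 119 to 147 CPM in Mysm1-/-Puma-/- and 63.2 to 82.7 in Mysm1-/-Puma+/-, with 2 and 1 of the genes at a mean under 1 CPM and none of them called. Summed markers of stem and progenitor cells (12 genes) were at 2121 to 2232 CPM in Mysm1-/-Puma-/- and 1548 to 2072 in Mysm1-/-Puma+/-, with 0 and 1 of the genes at a mean under 1 CPM. The part of these markers in the fall of the mitosis genes was not tested.

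Against wild type, 45 of the 50 genes fell in CD150NEG Mysm1-/-Puma-/- cells and none rose (edgeR; background 1.61% fallen), with a median log2 fold change of -0.97 against 0.02 over all genes. In 48 the libraries did not overlap, against 9.74% of all genes. Against Puma-/-, 32 fell and none rose (background 0.935%), with a median of -0.76 against 0.03, and 47 did not overlap (background 8.22%). With the receptor level as a covariate the counts were 47 and 40. Leaving out 1 library gave 30 to 43 genes against wild type, 30 of them without D2, and 7 to 28 against Puma-/-. The Puma-/- count was 7 without C2, 11 without B1, 12 without C3 and 19 without B3. Over all genes, 198 fell against Puma-/- in the full fit and 102, 106, 129 and 125 in these refits. These comparisons share the Mysm1-/-Puma-/- libraries with the one above, so they are no separate evidence of the low level. In all 3, 19 genes fell, and 46 fell in at least 1. Cdc25c, Pttg1, Bub3 and Hmmr fell in none. The share of all genes that fell in all 3 or in at least 1 was not counted, so these counts have no background. Summed megakaryocyte marker RNA was 67.2 to 87.6 CPM in Mysm1-/-Puma-/- and 58.9 to 62.0 in wild type, and erythroid marker RNA was 459 to 507 and 521 to 556, with Hba-a1 at 0 in both groups. The stem and progenitor markers were at 2121 to 2232 CPM in Mysm1-/-Puma-/- and 1897 to 2080 in wild type, with 0 and 1 of the genes at a mean under 1 CPM and none called. Their part in the result was not tested.

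**Figure D2:**
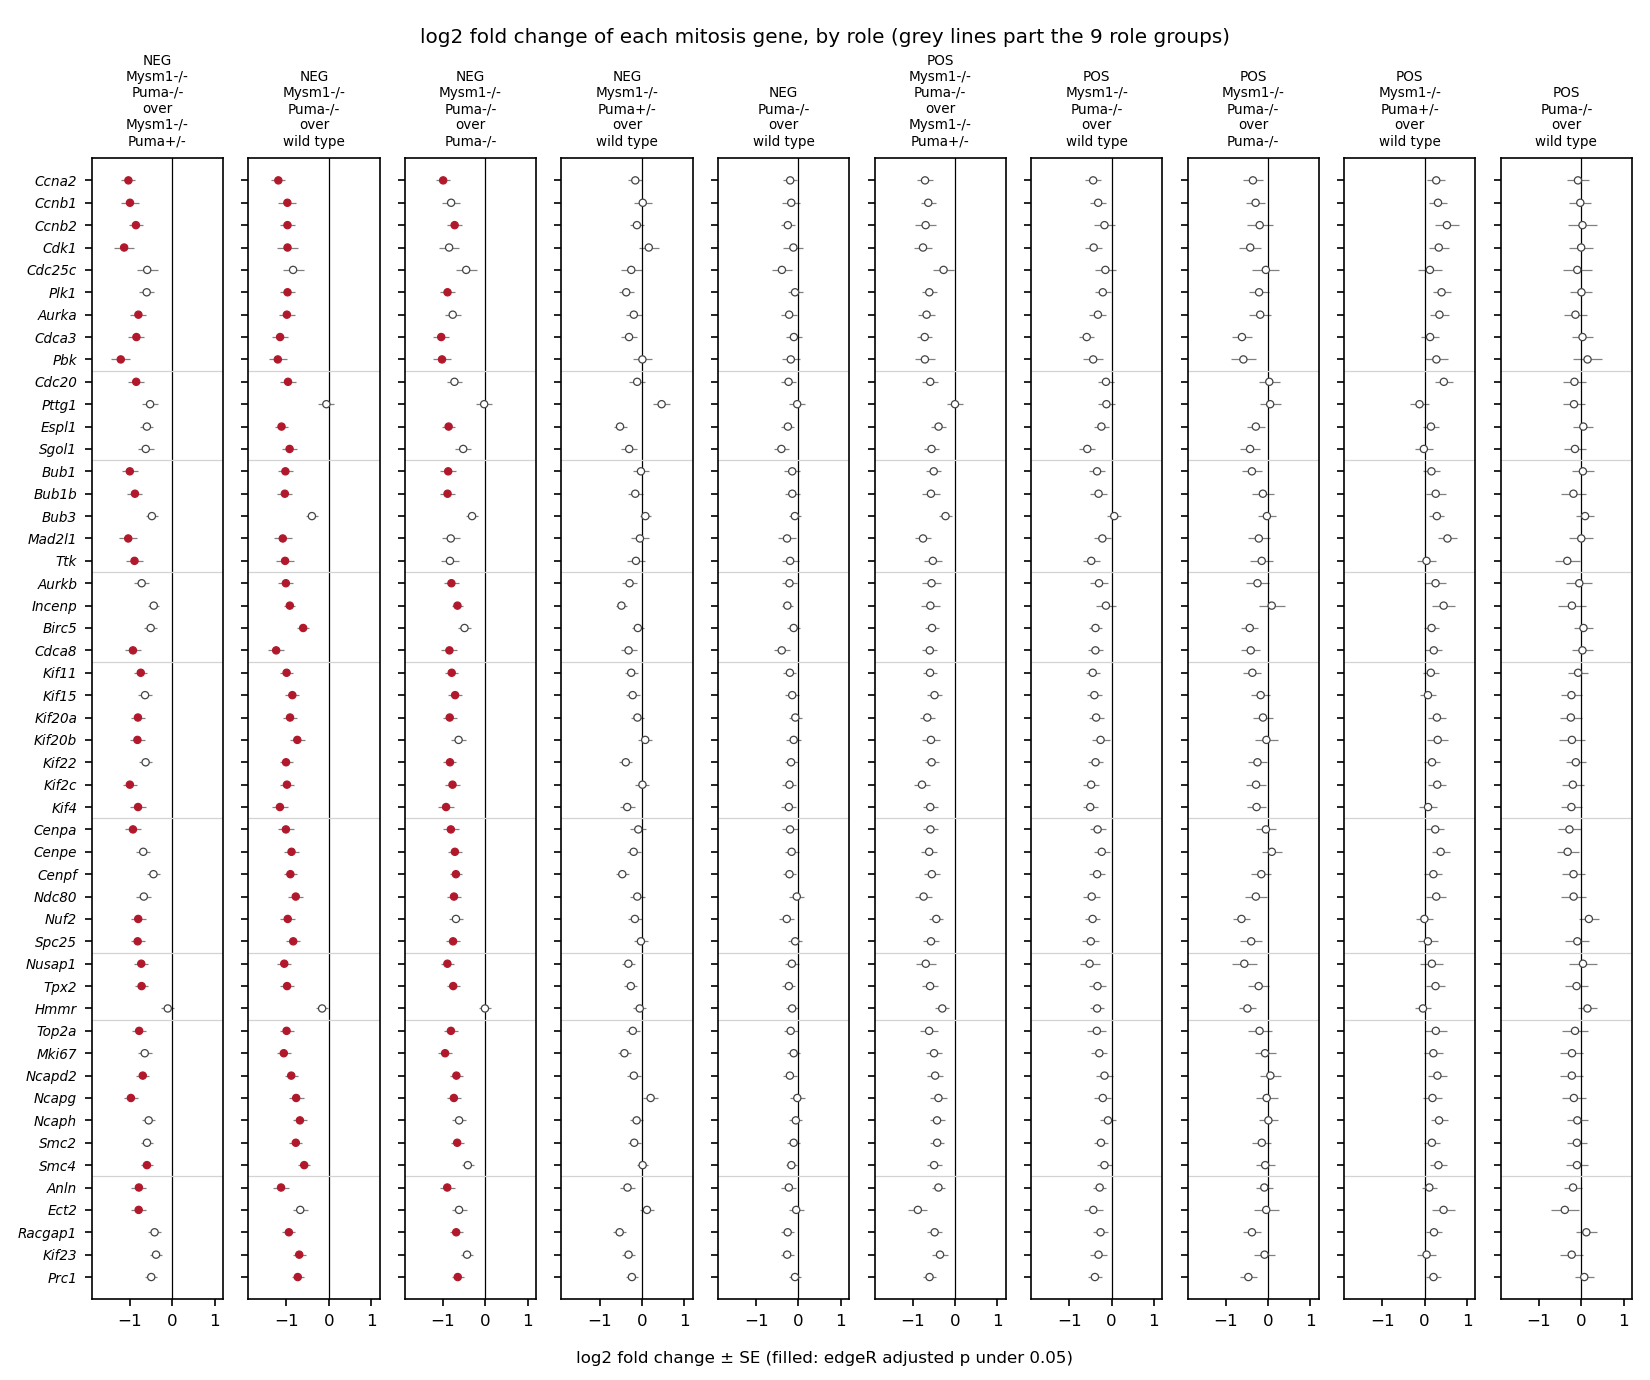
Log2 fold change ± SE of each of the 50 genes (rows, parted by role) in the 5 CD150NEG and 5 CD150POS comparisons between genotypes (columns); filled points passed edgeR's adjusted p of 0.05. Filled points lie only in the 3 CD150NEG columns of Mysm1-/-Puma-/-, with 29, 45 and 32 genes, and none in the CD150POS columns.

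Among the genes that start mitosis, the kinases and cyclins of entry, 7 of 9 fell in CD150NEG Mysm1-/-Puma-/- over Mysm1-/-Puma+/- cells (median log2 fold change -0.86), 8 against wild type and 5 against Puma-/-. Ccna2 (mm9 chr3:36463788-36471072), cyclin A, was at 41.5, 50.8 and 55.1 CPM in Mysm1-/-Puma-/-, against 107, 106 and 72.9 in Mysm1-/-Puma+/-. It was at 96.3, 101 and 89.9 CPM in Puma-/- and 118, 105 and 103 in wild type. No Mysm1-/-Puma-/- library reached the lowest library of another genotype, and A3 was the low one of its group. The log2 fold change was -1.04 ± 0.17 (SE) over Mysm1-/-Puma+/- (edgeR adjusted p = 0.00792), -1.19 ± 0.17 over wild type (adjusted p = 0.000654) and -0.997 ± 0.17 over Puma-/- (adjusted p = 0.00359).

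Cdk1 (mm9 chr10:68799383-68815686), the kinase that cyclins A and B switch on, was at 29.6, 51.1 and 56.6 CPM in Mysm1-/-Puma-/-, against 115, 110 and 62.8 in Mysm1-/-Puma+/-. Puma-/- had 92.2, 78.0 and 73.4 CPM and wild type 90.0, 86.7 and 85.7. The groups did not overlap, though the highest Mysm1-/-Puma-/- library, B5, lay near A3. Cdk1 fell over Mysm1-/-Puma+/- (-1.14 ± 0.24, edgeR adjusted p = 0.0304) and over wild type (-0.98 ± 0.24, adjusted p = 0.0373), and did not pass over Puma-/- (-0.86 ± 0.24, adjusted p = 0.107). Ccnb1 (mm9 chr13:101548605-101556525), cyclin B1, was at 26.2, 32.3 and 40.3 CPM in Mysm1-/-Puma-/-, against 73.7, 68.2 and 45.3 in Mysm1-/-Puma+/-. Puma-/- had 62.2, 61.2 and 45.6 CPM and wild type 76.1, 54.9 and 57.6, so the Mysm1-/-Puma-/- libraries were again the lowest 3. Ccnb1 fell over Mysm1-/-Puma+/- (-0.999 ± 0.21, edgeR adjusted p = 0.0323) and wild type (-0.98 ± 0.21, adjusted p = 0.0177) but not over Puma-/- (-0.81 ± 0.21, adjusted p = 0.0773). The largest change of all 50 in the first comparison was that of Pbk, a mitotic kinase, at 13.9, 18.6 and 22.4 CPM in Mysm1-/-Puma-/- against 49.5, 44.6 and 27.0 in Mysm1-/-Puma+/- (-1.22 ± 0.22, edgeR adjusted p = 0.0134). Plk1, the Polo kinase, and Cdc25c, a phosphatase that activates CDK1, did not pass there (-0.60 and -0.59).

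Of the 4 genes of cohesion release, 1 fell over Mysm1-/-Puma+/-, 3 over wild type and 1 over Puma-/-. Cdc20 (mm9 chr4:118105506-118109957), which activates the anaphase-promoting complex, was at 20.3, 29.3 and 34.1 CPM in Mysm1-/-Puma-/-, against 48.1, 54.4 and 41.0 in Mysm1-/-Puma+/-. Puma-/- had 46.8, 45.9 and 43.2 CPM and wild type 56.5, 50.5 and 51.4, with no overlap with Mysm1-/-Puma-/-. Cdc20 fell over Mysm1-/-Puma+/- (-0.85 ± 0.18, edgeR adjusted p = 0.0345) and over wild type (-0.96 ± 0.18, adjusted p = 0.00725). Espl1, the separase that cuts cohesin, had the smallest p of the 50 over wild type (-1.12 ± 0.15, edgeR adjusted p = 0.000625). Pttg1, the securin that holds separase inactive, was at 10.1, 10.0 and 8.74 CPM in Mysm1-/-Puma-/-, against 8.68, 9.13 and 11.1 in wild type, which overlap. Its log2 fold change over wild type was -0.06 ± 0.19 (edgeR adjusted p = 0.98). It was at 14.01, 13.8 and 11.2 CPM in Mysm1-/-Puma+/-, the highest CD150NEG group.

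The spindle checkpoint, which holds the cell in metaphase until all kinetochores are attached, had 4 of 5 genes fall over Mysm1-/-Puma+/- (median -0.89), 4 over wild type and 2 over Puma-/-. Bub1 (mm9 chr2:127626858-127657601), a checkpoint kinase, was at 17.1, 25.4 and 23.01 CPM in Mysm1-/-Puma-/-, against 44.1, 45.9 and 34.6 in Mysm1-/-Puma+/-. Puma-/- had 37.1, 46.2 and 34.7 CPM and wild type 48.0, 42.5 and 38.7, all above the Mysm1-/-Puma-/- libraries. Bub1 fell in all 3 comparisons, with log2 fold changes of -1.003 ± 0.19, -1.03 ± 0.19 and -0.88 ± 0.19 over Mysm1-/-Puma+/-, wild type and Puma-/- (edgeR adjusted p = 0.0148, 0.00474 and 0.0219). Its relative Bub1b, and Mad2l1 and Ttk, which act with it, fell over Mysm1-/-Puma+/- (-0.88, -1.04 and -0.89). Bub3, which also serves outside the checkpoint, did not pass in any of the 3 (-0.48 over Mysm1-/-Puma+/-, -0.40 over wild type and -0.31 over Puma-/-).

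In the chromosomal passenger complex, which corrects wrong attachments, 1 of 4 genes fell over Mysm1-/-Puma+/-, all 4 over wild type and 3 over Puma-/-. Cdca8 (mm9 chr4:124595709-124616555), the subunit borealin, was at 31.0, 39.7 and 51.8 CPM in Mysm1-/-Puma-/-, against 77.5, 80.3 and 63.4 in Mysm1-/-Puma+/-. Puma-/- had 59.0, 89.0 and 68.5 CPM and wild type 96.4, 96.5 and 87.8. All Mysm1-/-Puma-/- libraries were below the rest, and Cdca8 had the largest log2 fold change of the 50 over wild type (-1.24 ± 0.19, edgeR adjusted p = 0.00126), with -0.93 ± 0.19 over Mysm1-/-Puma+/- (adjusted p = 0.0284). Its kinase Aurkb missed the threshold over Mysm1-/-Puma+/- (-0.72 ± 0.17, edgeR adjusted p = 0.0504), and so did Incenp (-0.44) and Birc5, or survivin (-0.51).

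The mitotic kinesins are motor proteins that move along or take apart microtubules. Of the 7 members placed in this role, 5 fell over Mysm1-/-Puma+/- (median -0.81), all 7 over wild type and 6 over Puma-/-. Kif23, also a kinesin, was counted with the cytokinesis genes. Kif2c (mm9 chr4:116832244-116855244), which depolymerises microtubules at the kinetochore, was at 27.0, 31.8 and 34.0 CPM in Mysm1-/-Puma-/-, against 62.5, 66.9 and 46.5 in Mysm1-/-Puma+/-. Puma-/- had 54.6, 56.8 and 43.6 CPM and wild type 61.3, 59.3 and 57.3, without overlap with Mysm1-/-Puma-/-. The log2 fold change over Mysm1-/-Puma+/- was -1.002 ± 0.17 (edgeR adjusted p = 0.00877), which with Ccna2 made the 2 members that passed at 0.01. Kif11, which pushes the spindle poles apart, and Kif20a and Kif4, which act in the central spindle, fell in all 3 comparisons.

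Centromere and kinetochore genes fell in 3 of 6 cases over Mysm1-/-Puma+/- (median -0.75), in all 6 over wild type and in 5 over Puma-/-. Spc25 (mm9 chr2:69031952-69044251), of the NDC80 complex that grips microtubules, was at 36.0, 50.3 and 53.7 CPM in Mysm1-/-Puma-/-, against 89.0, 77.3 and 68.0 in Mysm1-/-Puma+/-. Puma-/- had 81.4, 75.3 and 75.6 CPM and wild type 78.1, 86.4 and 78.1, all above Mysm1-/-Puma-/-. Spc25 fell over Mysm1-/-Puma+/- (-0.82 ± 0.17, edgeR adjusted p = 0.0282). Cenpa, the centromeric histone, fell in all 3 comparisons (-0.93, -1.01 and -0.82 over Mysm1-/-Puma+/-, wild type and Puma-/-). Of the spindle assembly genes, Tpx2 (mm9 chr2:152673700-152721057), which activates Aurora A on the spindle, was at 81.2, 98.0 and 92.5 CPM in Mysm1-/-Puma-/-, against 160, 153 and 112 in Mysm1-/-Puma+/-. Puma-/- had 147, 170 and 131 CPM and wild type 189, 164 and 166. Tpx2 and Nusap1 fell in all 3 comparisons (over Mysm1-/-Puma+/-, -0.72 ± 0.16 with edgeR adjusted p = 0.0342 and -0.73 ± 0.16 with adjusted p = 0.0359). Hmmr, the hyaluronan receptor that also acts at spindle poles, was at 224, 185 and 174 CPM in Mysm1-/-Puma-/-, against 234, 197 and 158 in Mysm1-/-Puma+/-, and overlapped with every other CD150NEG group.

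Genes of chromosome structure fell in 4 of 7 cases over Mysm1-/-Puma+/- (median -0.65), in all 7 over wild type and in 5 over Puma-/-. Mki67 (mm9 chr7:142881471-142908062), which coats mitotic chromosomes and is the common marker of cycling cells, was at 556, 740 and 634 CPM in Mysm1-/-Puma-/-, against 1057, 982 and 831 in Mysm1-/-Puma+/-. Puma-/- had 1219, 1320 and 1107 CPM and wild type 1489, 1226 and 1184. Here the libraries formed steps, with Mysm1-/-Puma-/- lowest, Mysm1-/-Puma+/- above it and all Puma-/- and wild-type libraries higher still. Mki67 did not pass over Mysm1-/-Puma+/- (-0.65 ± 0.16, edgeR adjusted p = 0.0548) and fell over wild type (-1.06 ± 0.16, adjusted p = 0.00117) and Puma-/- (-0.95 ± 0.16, adjusted p = 0.0041). Ncapg (mm9 chr5:46061161-46091783), a condensin subunit, was at 45.5, 64.6 and 63.9 CPM in Mysm1-/-Puma-/-, against 120, 119 and 86.8 in Mysm1-/-Puma+/-. Puma-/- had 100, 94.0 and 90.7 CPM and wild type 95.0, 105 and 87.5, so that 2 Mysm1-/-Puma+/- libraries were above all of these. Ncapg fell over Mysm1-/-Puma+/- (-0.98 ± 0.17, edgeR adjusted p = 0.013). Top2a, the topoisomerase that untangles sister chromatids, fell in all 3 comparisons (-0.78, -0.998 and -0.81 over Mysm1-/-Puma+/-, wild type and Puma-/-).

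Cytokinesis genes had the smallest median over Mysm1-/-Puma+/- (-0.50), with 2 of 5 fallen, 4 over wild type and 3 over Puma-/-. Ect2 (mm9 chr3:26996144-27052800), the exchange factor that activates RhoA at the cleavage furrow, was at 36.0, 49.2 and 38.6 CPM in Mysm1-/-Puma-/-, against 76.0, 76.6 and 50.7 in Mysm1-/-Puma+/-. Puma-/- had 57.0, 66.4 and 62.6 CPM and wild type 72.8, 56.5 and 61.9. Library B3 came close to A3, and Ect2 passed over Mysm1-/-Puma+/- (-0.79 ± 0.18, edgeR adjusted p = 0.0375) but neither over wild type (-0.68 ± 0.18, adjusted p = 0.0559) nor over Puma-/- (-0.62 ± 0.18, adjusted p = 0.118). Anln, or anillin, which links the furrow's actin to the membrane, fell in all 3. Racgap1 and Kif23, the partners of the centralspindlin complex, did not pass over Mysm1-/-Puma+/- (-0.42 and -0.38) and fell over wild type (-0.94 and -0.70).

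**Figure D3:**
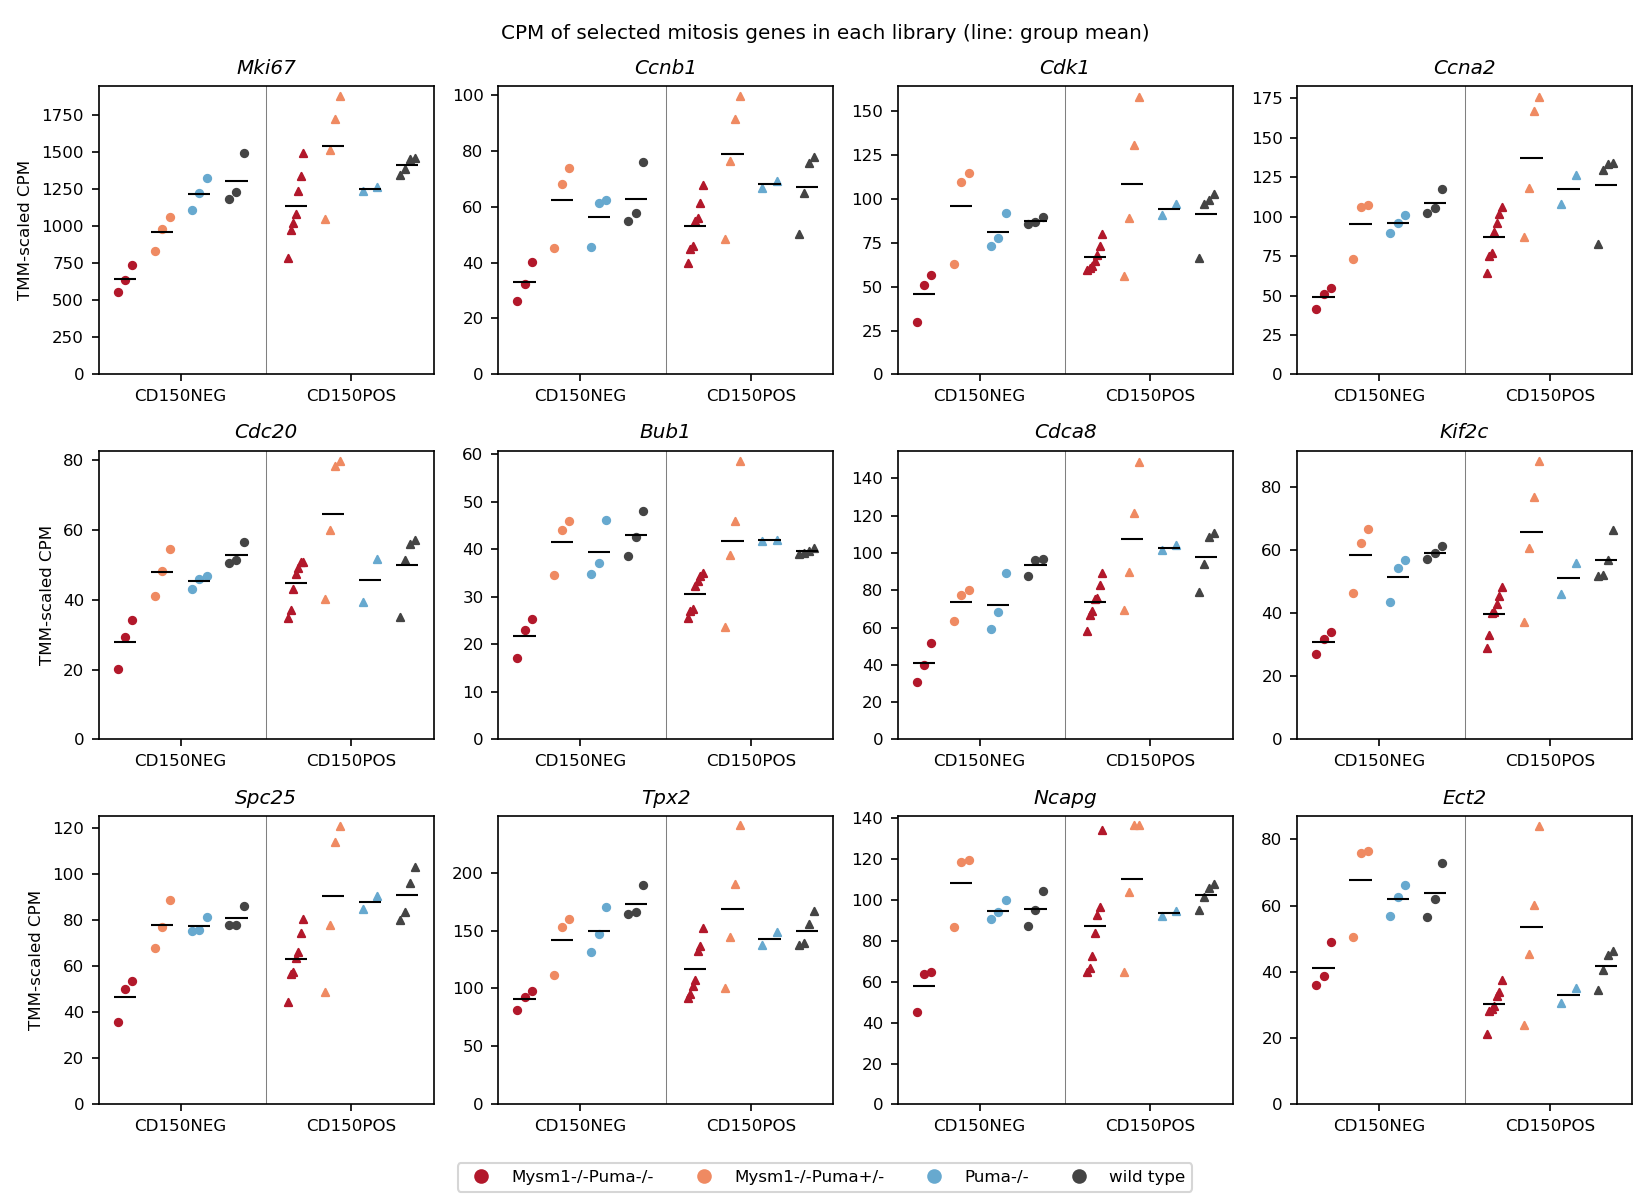
TMM-scaled CPM of 12 mitosis genes in each library, with CD150NEG libraries as circles on the left of each panel and CD150POS libraries as triangles on the right, coloured by genotype, and a line at each group mean. In CD150NEG cells the Mysm1-/-Puma-/- libraries lie below those of every other genotype in each panel, while in CD150POS cells they overlap with the wide spread of Mysm1-/-Puma+/-.

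No mitosis gene passed in CD150NEG cells when Mysm1-/-Puma+/- was set against wild type. edgeR called 0 of the 50 (background 0.231% fallen and 0.638% risen), 6 were lower and 1 higher at an unadjusted p under 0.05, and DESeq2, voom and limma-trend called 1, 4 and 1. The median log2 fold change was -0.17, against -0.05 over all genes, and 40 of 50 were lower. The median was -0.07 without A3, -0.10 without D2 and -0.25 without A2. In 14 all Mysm1-/-Puma+/- libraries lay below wild type, against 7.73% of all genes, and in 18 on the printed scaling. The smallest p belonged to Incenp, the scaffold of the passenger complex, at 137, 154 and 133 CPM in Mysm1-/-Puma+/- against 211, 191 and 204 in wild type (-0.48 ± 0.13, edgeR adjusted p = 0.111). Racgap1 was at 51.3, 43.5 and 36.9 CPM in Mysm1-/-Puma+/- against 75.1, 57.2 and 61.3 in wild type (-0.53 ± 0.15, edgeR adjusted p = 0.161). Espl1 was at 34.1, 37.9 and 27.9 CPM in Mysm1-/-Puma+/- against 52.1, 42.3 and 52.1 in wild type (-0.52 ± 0.15, edgeR adjusted p = 0.171). In each of the 3 the groups did not overlap.

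Puma loss with Mysm1 intact gave no called gene. In CD150NEG Puma-/- over wild type, 0 of 50 passed in edgeR (background 0%), 1 had an unadjusted p under 0.05, and DESeq2, voom and limma-trend called 0. All 50 were lower, with a median of -0.18 against -0.01 over all genes. In 10 the libraries did not overlap (background 3.65%), or in 9 on the printed scaling. Without C5 the median was -0.10. The smallest p belonged to Sgol1, or shugoshin, which protects centromeric cohesin, at 20.3, 31.1 and 24.4 CPM in Puma-/- against 31.1, 35.1 and 32.7 in wild type (-0.40 ± 0.18, edgeR adjusted p = 1). It was followed by Cdca8 (-0.40 ± 0.19) and Incenp (-0.26 ± 0.13), neither of which passed.

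Whether Mysm1 loss lowered the genes more where Puma was missing was tested as a difference, in a comparison added after the separate ones had been seen. In CD150NEG cells, Mysm1-/-Puma-/- over Puma-/- minus Mysm1-/-Puma+/- over wild type had a median of -0.54 over the 50 genes, against 0.07 over all genes, and 49 of 50 were negative. None passed in edgeR (background 0.00472%), 34 were lower at an unadjusted p under 0.05, and DESeq2, voom and limma-trend called 0, 1 and 0. Ncapg (-0.95 ± 0.24, edgeR adjusted p = 0.557), Ccna2 (-0.84 ± 0.23, adjusted p = 0.617) and Pbk (-1.04 ± 0.31, adjusted p = 0.617) had the smallest p. In CD150POS cells the median was -0.44, against -0.02, with 49 of 50 negative, -0.26 without A1, 0 passing (background 0%), 7 at an unadjusted p under 0.05 and 0 by the other 3 tools. Prc1 (-0.68 ± 0.27), Cdca3 (-0.75 ± 0.31) and Birc5 (-0.60 ± 0.27) led there, each with an edgeR adjusted p of 1.

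In CD150POS cells no mitosis gene passed between genotypes. Mysm1-/-Puma-/- over Mysm1-/-Puma+/- had a median log2 fold change of -0.57 (range -0.88 to 0.00), against 0.01 over all genes, and all 50 were lower, 44 of them at an unadjusted p under 0.05. edgeR, DESeq2, voom and limma-trend called 0, as edgeR did over all genes (background 0%). In none did the libraries separate (background 0.134%). Without library A4, 6 genes passed, all of them lower, while 9 of all 20870 genes fell. Without A1, the highest CD150POS library for 43 genes, the median was -0.36. A4 had the lowest Mysm1-/-Puma+/- level of 49 genes and the highest summed megakaryocyte marker RNA, 1404 CPM over 10 genes, against 491 in A1, 574 in A2 and 998 in A3. The part of these markers in the spread was not tested.

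Kif2c had the smallest p, with 28.99, 40.3 and 48.2 CPM as the lowest, median and highest of 7 Mysm1-/-Puma-/- libraries, against 88.5, 76.9, 60.7 and 37.4 in Mysm1-/-Puma+/- (-0.78 ± 0.19, edgeR adjusted p = 0.771). The Mysm1-/-Puma-/- range lay below A1 to A3 and took in A4. Cdca3, which helps to trigger entry into mitosis, was at 21.5, 29.7 and 36.4 CPM in Mysm1-/-Puma-/-, against 62.0, 56.6, 40.3 and 29.9 in Mysm1-/-Puma+/- (-0.72 ± 0.18, edgeR adjusted p = 0.842). Ect2 was at 21.2, 29.8 and 37.7 CPM in Mysm1-/-Puma-/-, against 83.9, 60.3, 45.6 and 24.1 in Mysm1-/-Puma+/- (-0.88 ± 0.23, edgeR adjusted p = 0.842). Both show the same order, with A4 alone inside the Mysm1-/-Puma-/- range. Cdk1 was at 59.4, 64.5 and 79.8 CPM in Mysm1-/-Puma-/-, against 158, 131, 89.0 and 56.3 in Mysm1-/-Puma+/- (-0.76 ± 0.20), with A4 the lowest library of both groups. Ccnb1 was at 40.0, 54.7 and 67.8 CPM in Mysm1-/-Puma-/-, against 99.5, 91.3, 76.4 and 48.3 in Mysm1-/-Puma+/- (-0.63 ± 0.18). Mki67 was at 781, 1081 and 1491 CPM in Mysm1-/-Puma-/-, against 1876, 1722, 1510 and 1045 in Mysm1-/-Puma+/- (-0.50 ± 0.19), again with A4 alone inside the range.

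Over wild type, the CD150POS medians lay on either side of 0. Mysm1-/-Puma+/- over wild type had a median of 0.24, against -0.05 over all genes, with 46 of 50 higher, 2 at an unadjusted p under 0.05 and 0 called by edgeR (background 0.372% risen) or the other 3 tools. This median was 0.03 in limma-trend on the deposited CPM, 0.03 without A1 and 0.39 without A4. Mad2l1, a checkpoint protein that inhibits CDC20, was at 67.1, 57.7, 42.0 and 24.7 CPM in Mysm1-/-Puma+/- against 40.5, 38.6, 33.2 and 27.5 in wild type (0.54 ± 0.23, edgeR adjusted p = 0.513). Cdc20 (0.45 ± 0.21) and Ccnb2 (0.53 ± 0.28) followed, and in all 3 genes the groups overlapped. Mysm1-/-Puma-/- over wild type had a median of -0.33, against -0.05, with 49 of 50 lower and 17 at an unadjusted p under 0.05. edgeR called 0 (background 0.043% fallen), as did the other 3 tools, and 4 genes separated (background 0.735%), or 6 on the printed scaling. Cdca3 was at 21.5, 29.7 and 36.4 CPM in Mysm1-/-Puma-/- (lowest, median and highest of 7) against 48.6, 53.4, 44.5 and 36.5 in wild type (-0.59 ± 0.18, edgeR adjusted p = 0.304), with Sgol1 (-0.57 ± 0.19) and Kif4 (-0.50 ± 0.18) next.

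Mysm1-/-Puma-/- over Puma-/- in CD150POS cells rested on 2 Puma-/- libraries. The median was -0.21, against -0.09 over all genes, with 44 of 50 lower, 5 at an unadjusted p under 0.05, 0 called by edgeR (background 0.0239% fallen) or the other 3 tools, and 10 separated (background 6.74%), or 15 on the printed scaling. Nuf2, of the NDC80 complex, was at 103, 117 and 126 CPM in Mysm1-/-Puma-/- (lowest, median and highest of 7) against 158 and 216 in Puma-/- (-0.63 ± 0.21, edgeR adjusted p = 0.452). Cdca3 (-0.62 ± 0.23) and Prc1, which bundles the central spindle (-0.47 ± 0.20), were the next 2, likewise without overlap. Puma-/- over wild type had a median of -0.11, against 0.02, with 35 lower, 0 at an unadjusted p under 0.05 and 0 called by edgeR (background 0%) or the other 3 tools. That median was -0.06 without D1 and -0.07 without C2-5. In 7 genes both Puma-/- libraries lay below all wild-type ones (background 3.35%), and in 0 above (background 5.12%). On the printed scaling 3 lay below and 1 above. Cenpe (-0.32 ± 0.26), Ect2 (-0.39 ± 0.33) and Ttk (-0.33 ± 0.29) had the smallest p there.

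Set within a genotype, CD150POS and CD150NEG cells had the most mitosis genes called where both Mysm1 and Puma were missing. That genotype also had the most CD150POS libraries (7) and the most risen genes over all genes. These were 1127, against 675 in wild type, 582 in Mysm1-/-Puma+/- and 499 in Puma-/-. The counts are therefore not like for like between genotypes. In Mysm1-/-Puma-/-, 12 of 50 genes rose in CD150POS over CD150NEG cells and none fell (edgeR; background 5.16% risen and 7.14% fallen), with a median of 0.44 against -0.07 over all genes, 34 at an unadjusted p under 0.05 and 48 higher. In 19 the libraries did not overlap (background 5.51%). Anln was at 43.1, 48.7 and 63.2 CPM in CD150POS (lowest, median and highest of 7) against 24.4, 33.1 and 28.6 in CD150NEG libraries (0.83 ± 0.16, edgeR adjusted p = 0.000473). Mki67 was at 781, 1081 and 1491 CPM in CD150POS against 556, 740 and 634 in CD150NEG libraries (0.82 ± 0.18, edgeR adjusted p = 0.00163). Cdca8 was at 58.2, 75.1 and 89.4 CPM in CD150POS against 31.0, 39.7 and 51.8 in CD150NEG libraries (0.86 ± 0.19, edgeR adjusted p = 0.00199). In these 3 genes every CD150POS library was above every CD150NEG one. Ccna2 (0.83), Nuf2 (0.67), Cenpa (0.72), Cdc20 (0.68), Ccnb1 (0.69), Kif20a (0.58), Kif4 (0.59), Ncapg (0.59) and Plk1 (0.55) also rose. Without CD150NEG library B1, 2 genes rose, and without CD150POS library B5, 19. The risen genes over all genes moved the same way, from 1127 to 519 without B1 and 1506 without B5.

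In the other genotypes at most 1 gene passed in edgeR. In Mysm1-/-Puma+/- it was Mki67, at 1876, 1722, 1510 and 1045 CPM in CD150POS against 1057, 982 and 831 in CD150NEG libraries (0.69 ± 0.19, edgeR adjusted p = 0.0251; background 2.67% risen), where only A4 fell within the CD150NEG range. The median there was 0.28, against 0.00 over all genes, and 47 of 50 were higher. That median was 0.12 without CD150POS A1, 0.15 without CD150NEG A3 and 0.47 without CD150POS A4. The count was 8 without CD150POS A4, 2 without A3, and 0 without CD150POS A1 or A2 or CD150NEG A2 or A3. Over all genes, 582 rose in the full fit and 388 to 570 in these refits. In Puma-/- none passed in edgeR (background 2.29% risen), with a median of 0.03 (-0.02 without CD150NEG C5) against 0.15, and DESeq2, voom and limma-trend called 3, 4 and 2. Hmmr (0.76 ± 0.23, edgeR adjusted p = 0.0559), Nuf2 (0.71 ± 0.23, adjusted p = 0.0766) and Ect2 (-0.92 ± 0.30, adjusted p = 0.0816) had the smallest p. In wild type Kif23 fell, at 68.7, 59.4, 63.8 and 82.3 CPM in CD150POS against 116, 96.1 and 106 in CD150NEG libraries (-0.63 ± 0.19, edgeR adjusted p = 0.0447; background 4.05% fallen), with no overlap. It did not pass without any 1 of CD150POS D1, D2 or D3-4 or CD150NEG D2, D3 or D4. The wild-type median was -0.06, against 0.05 over all genes, and ran from -0.14 without CD150POS D2 to 0.02 without W1. Kif23 and Ect2, both of cytokinesis, were lower in CD150POS cells in all 4 genotypes.

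**Figure D4:**
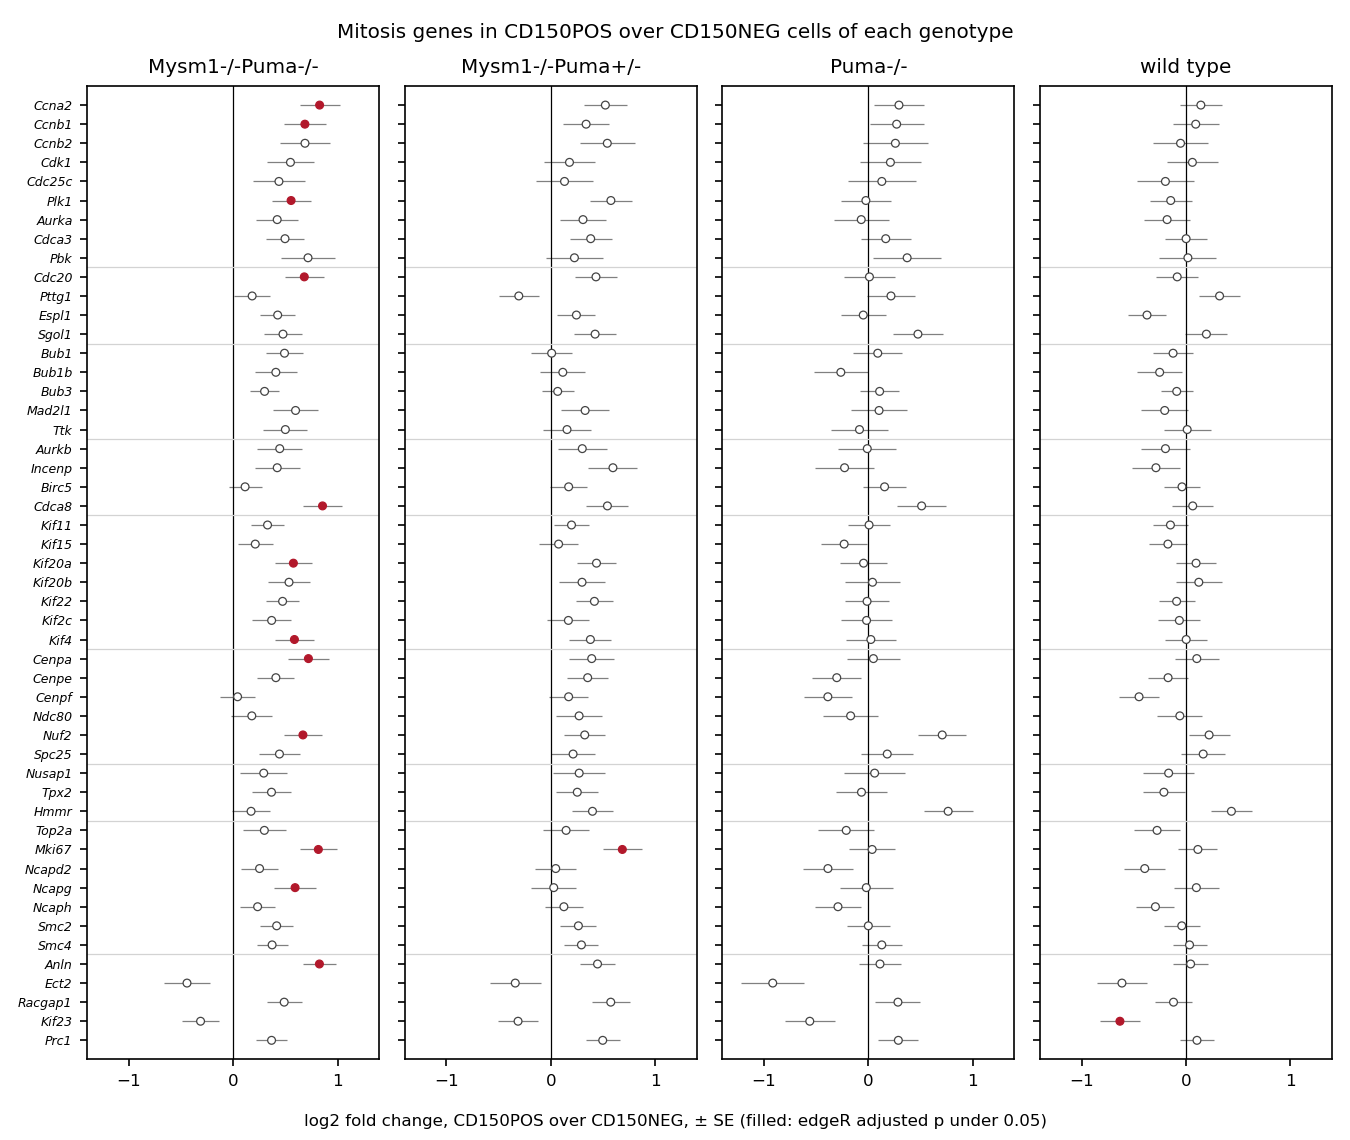
Log2 fold change ± SE of the 50 genes (rows, parted by role) in CD150POS over CD150NEG cells of each genotype; filled points passed edgeR's adjusted p of 0.05. In Mysm1-/-Puma-/- 48 genes lie above 0 and 12 points are filled, in Mysm1-/-Puma+/- and wild type 1 is filled, and in Puma-/- none.

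Whether the genotype effects differed between the populations was tested in the fit of all 29 libraries. The log2 fold change of Mysm1-/-Puma-/- over Mysm1-/-Puma+/- in CD150NEG minus that in CD150POS cells had a median of -0.15 over the 50 genes, against 0.05 over all genes, and ran from -0.37 without CD150POS A1 and -0.30 without CD150NEG B5 to -0.05 without CD150NEG B1 and -0.03 without CD150POS A4. Of the 50, 41 were negative, 0 passed in edgeR (background 0%), 0 had an unadjusted p under 0.05, and the other 3 tools called 0. Ncapg (-0.56 ± 0.29), Pttg1 (-0.49 ± 0.26) and Bub1 (-0.48 ± 0.26) had the smallest p. A fall called in CD150NEG and not in CD150POS cells is thus not shown to differ between them. For Mysm1-/-Puma+/- over wild type the difference had a median of -0.36, against 0.05, with 47 of 50 negative. It was -0.24 without CD150NEG A3, -0.25 without CD150POS A1 and -0.61 without CD150POS A4. None passed in edgeR (background 0%) or the other 3 tools, while 7 were lower and 1 higher at an unadjusted p under 0.05, led by Racgap1 (-0.69 ± 0.26), Incenp (-0.88 ± 0.33) and Plk1 (-0.72 ± 0.28).

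Other genes of the pathway were read beside the members. In CD150NEG Mysm1-/-Puma-/- over Mysm1-/-Puma+/- cells, 13 of 64 further mitosis genes fell and none rose (median -0.54), led by Ska1 (-1.05, edgeR adjusted p = 0.011), Nek2 (-0.86, adjusted p = 0.0154) and Shcbp1 (-0.996, adjusted p = 0.0228). Of 54 DNA replication genes 6 fell (median -0.56), led by Rrm2, a subunit of ribonucleotide reductase (-1.12, edgeR adjusted p = 0.00792), Prim1, a primase subunit (-0.77), and Dut, a dUTPase (-0.86). Over wild type, 33 of the 64 and 18 of the 54 fell, and over Puma-/- 16 and 4. Of all genes, 1.05% fell over Mysm1-/-Puma+/-, 1.61% over wild type and 0.935% over Puma-/-. In Mysm1-/-Puma+/- over wild type none of either list passed (medians -0.15 and -0.04). In CD150POS Mysm1-/-Puma-/- over Mysm1-/-Puma+/- cells none of either list passed (medians -0.40 and -0.31).

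Mybl2, which encodes B-MYB, was at 26.3, 25.6 and 28.6 CPM in CD150NEG Mysm1-/-Puma-/-, against 41.7, 45.7 and 38.2 in Mysm1-/-Puma+/-. Puma-/- had 62.8, 51.9 and 43.3 CPM and wild type 64.9, 53.5 and 47.0. It was the only called gene of 24 transcriptional regulators of mitotic genes over Mysm1-/-Puma+/- (-0.73 ± 0.17, edgeR adjusted p = 0.0453), and it fell over wild type (-1.10, adjusted p = 0.0013) and Puma-/- (-1.02, adjusted p = 0.00359). Foxm1 was at 16.6, 18.2 and 17.6 CPM in Mysm1-/-Puma-/-, against 23.8, 23.9 and 22.6 in Mysm1-/-Puma+/-. Puma-/- had 27.1, 28.6 and 22.7 CPM and wild type 39.0, 25.6 and 35.9. The Mysm1-/-Puma-/- libraries did not overlap with any other genotype in either gene. Foxm1 fell over wild type (-0.99, edgeR adjusted p = 0.00275) and did not pass over Mysm1-/-Puma+/- (-0.51 ± 0.17, adjusted p = 0.123) or Puma-/- (-0.62, adjusted p = 0.089). In CD150POS Mysm1-/-Puma-/- over Mysm1-/-Puma+/- cells neither passed (Mybl2 -0.38 ± 0.17 and Foxm1 -0.33 ± 0.19, edgeR adjusted p = 1 for each).

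The p53 target Cdkn1a, which encodes the CDK inhibitor p21, was high in both Mysm1-/- genotypes. It was at 27.9, 32.1 and 26.9 CPM in CD150NEG Mysm1-/-Puma-/-, against 28.7, 31.3 and 36.5 in Mysm1-/-Puma+/-. Puma-/- had 1.46, 3.01 and 2.60 CPM and wild type 2.30, 2.35 and 2.40. Both Mysm1-/- groups overlapped (-0.23 ± 0.21, edgeR adjusted p = 0.626) and stood far above the others: Mysm1-/-Puma+/- over wild type was 3.802 ± 0.236 (adjusted p = 4.07e-08) and Mysm1-/-Puma-/- over wild type 3.57 ± 0.23 (adjusted p = 1.31e-07). Of 15 p53 targets of arrest and checkpoint, 9 rose in Mysm1-/-Puma+/- over wild type (median 1.03; background 0.638%), 8 in Mysm1-/-Puma-/- over wild type (median 0.999; background 0.704%), 7 in Mysm1-/-Puma-/- over Puma-/- (background 0.411%) and none between the Mysm1-/- groups (median -0.18). In CD150POS cells 7 of the 15 rose in Mysm1-/-Puma+/- over wild type (background 0.372%), Cdkn1a by 3.81 ± 0.37 (edgeR adjusted p = 5.33e-06). The part of Cdkn1a in the levels of the mitosis genes was not tested.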

How the data were processed

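RNA from 29 sorted pools (12 CD150NEG and 17 CD150POS) was rRNA-depleted, made into libraries with the SMARTer Stranded kit and sequenced as paired reads, per the labels. Per the submitters' processing notes, reads were handled with FastQC, Trimmomatic 0.33, TopHat2 2.0.9 and Bowtie 1.0.0 on mm9, counted with featureCounts and normalised with edgeR in R 3.4.2; the order and settings of these steps are not given in the sources used here. The authors deposited gene counts for each library and a CPM matrix of 12578 genes, which was used for 1 alternative (limma-trend). Counts were read as deposited for 23366 genes.

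Genes with low counts were removed with filterByExpr (minimum count 10), which left 21168 genes in CD150NEG, 20944 in CD150POS and 21830 in all libraries. edgeR 4.0.16 in R 4.3.3 was run with TMM scaling and the quasi-likelihood F test, with all 4 genotypes of a population in 1 fit, and with all 29 libraries for comparisons across populations. P-values were adjusted by Benjamini-Hochberg over all genes tested, and 0.05 was the threshold. Each SE is approximate, taken from the F statistic and the log2 fold change. Other CPM values are TMM-scaled over all libraries, overlap within a population was counted on CPM scaled within it, and log2 CPM has a prior count of 2. The test was checked on simulated data with 200 changed genes in each fit.

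The 50 members, their 9 roles and the other lists were chosen with earlier results of these data known. All 50 may be named; values per library are given for Mki67, Ccnb1 and Cdk1, the member of each role with the smallest p in CD150NEG Mysm1-/-Puma-/- over Mysm1-/-Puma+/-, and the called members, or the 3 with the smallest p, elsewhere. Pbk, Hmmr, Pttg1 and other members outside this rule were given values after these had been seen. Lineage markers, immediate early genes and 1471 odorant and pheromone receptor genes were summed for each library in CPM over total counts, without TMM. Replicates differed by more than sampling noise (lowest chi-square per df 20.75). No label says what the numbers shared between library names mark. Libraries of a population that share a number correlated at -0.339 to 0.333, 6 of 16 over 0.1, which cannot settle whether they were paired. Libraries of the same name in both populations correlated at -0.0789 to 0.42, 4 of 7 over 0.1, and A2 had high Xist in both, but no label says that a name marks shared mice, so they were not treated as pairs. Alternatives were DESeq2 1.42.0, limma 3.58.1 (voom and limma-trend), RLE scaling, no filter, 2 groups alone, a receptor covariate, replicate blocks and leaving out libraries. Intervals of promoter shares are Wilson intervals at 95% and cover counting error only.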

Additional observations from a re-analysis of the deposited data

Results flagged for a closer look

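In CD150POS wild-type libraries, Cdk1 was at 66.1 CPM in W1, against 97.3 to 103 in D1, D2 and D3-4, and Ccna2 was at 82.8 CPM in W1, against 130 to 134 in the others. In each the gap between W1 and the next library took most of the range of the 4 (a share of 0.849 for Cdk1 and 0.919 for Ccna2, above the Dixon limit for 4 values). Of 39 groups of values tested this way these 2 stood out, and chance alone marks about 1 in 20. W1 also had a summed immediate early gene level of 1134 CPM, against 98.7 to 153 in D1, D2 and D3-4, and is 1 of the 4 libraries of the second naming series. The cause was not tested.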

How the results depend on the processing

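For 35 single results called in the main fit, 528 pairs of a result and another setting were followed: 387 kept their call, 141 lost it and 0 reversed. These pairs hold genes already called and reuse most of the same libraries. They are not separate tests, and the lack of reversals is no added evidence of direction. For Mysm1-/-Puma-/- over Mysm1-/-Puma+/- in CD150NEG cells (29 genes), the count was 2 at an adjusted p of 0.01, 44 at 0.1, 45 with DESeq2, 45 with voom, 0 with the 2 groups fitted alone, 3 without libraries of high receptor background and 0 to 42 on leaving out 1 library, 42 without A3. Over all genes, 222 fell in the main fit of this comparison, against 1 with the 2 groups alone and 1 without A2. Over wild type (45) leaving out 1 library gave 30 to 43. Over Puma-/- (32) the count was 21 with the 2 groups alone, 11 without high receptor background and 7 to 28 on leaving out 1 library. For Mysm1-/-Puma+/- over wild type (0) DESeq2 called 1, voom 4, limma-trend 1 and the receptor covariate 1; with that covariate the 3 counts above were 31, 47 and 40. For CD150POS over CD150NEG, wild type (1) gave 0 without the filter on low counts, 3 with voom and 0 to 1 on leaving out 1 library; Mysm1-/-Puma+/- (1) gave 3 with DESeq2, 2 with voom and 0 to 8; Mysm1-/-Puma-/- (12) gave 22 with voom, 27 with limma-trend and 2 to 19; and Puma-/- (0) gave 3 with DESeq2, 4 with voom, 2 with limma-trend, 1 without the P and W libraries and 0 to 1 (1 without CD150POS C1-4, where 1 CD150POS Puma-/- library was left, assumed to vary like the other groups). In CD150POS Mysm1-/-Puma-/- over Mysm1-/-Puma+/- (0), leaving out 1 library gave 0 to 6. On the printed scaling, counted after the data were seen, the members without overlap numbered 45, 18, 48, 45 and 9 in the CD150NEG comparisons of Mysm1-/-Puma-/- over Mysm1-/-Puma+/-, Mysm1-/-Puma+/- over wild type, Mysm1-/-Puma-/- over wild type and Puma-/-, and Puma-/- over wild type (46, 14, 48, 47 and 10 within the population). The added difference in CD150NEG cells (0) gave 1 with voom. With the number in the name as a replicate block, fitted on 11 CD150NEG libraries, the 3 CD150NEG counts of Mysm1-/-Puma-/- were 0, 2 and 0 over Mysm1-/-Puma+/-, wild type and Puma-/-. With the library name as a replicate block across populations, the counts were 7 in Mysm1-/-Puma+/- and 19 in Mysm1-/-Puma-/-. The labels do not say that numbers or names mark shared animals, so these counts are not read as weaker or stronger effects. No paired analysis was possible for CD150POS comparisons with Puma-/- because too few numbers are shared. The cause of these moves was not tested, except that the fits on 2 groups or with a library left out hold fewer samples. Between TMM and RLE scaling the median of all genes moved most in CD150POS Mysm1-/-Puma-/- over Puma-/-, by -0.0884 on the log2 scale. The groups held 2 to 7 libraries, and the smallest count of a member was 115, so counting error may form part of the spread for the lowest members.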

Other observations

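Among the members, Pttg1 and Bub3 varied least between groups: their highest group mean was 1.37 and 1.38 times their lowest. Ccna2 varied most, at 2.79 times, and Cdca8, Nuf2 and Mki67 were at 2.63, 2.58 and 2.39. Library A3 of CD150NEG Mysm1-/-Puma+/- had the lowest level of 49 of the 50 genes in its group, and A4 of CD150POS Mysm1-/-Puma+/- likewise had the lowest of 49 in its own. In CD150POS over CD150NEG Mysm1-/-Puma-/- cells, 12 of 64 further mitosis genes rose and 3 fell (edgeR adjusted p under 0.05; 5.16% of all genes rose and 7.14% fell), and 11 of 54 replication genes rose and 1 fell, the DNA polymerase alpha subunit gene Pola2 (-0.81).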
